A study of Mus musculus with 21 samples.

Results

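Spsb1, Cish, Socs1, Socs2, Socs3, Pim1 and Pim3 are mouse genes for intracellular proteins that limit or modify growth factor and cytokine signalling. These 7 genes were followed among the 18193 genes of an array set from NMuMG cells and the 12393 genes of an array set from NM18 cells, and all 7 were measured in both. They were chosen partly from their measured responses to transforming growth factor beta 1 (TGF-b1), with results of both array sets known, so their 2 h changes are a description with no p-value, and nothing is read from how many passed. A gene was found by its symbol on the array. Where a gene had several probe sets, the one of highest mean within an array set stood for it, out of 20 probe sets for the 7 genes on the NMuMG arrays and 16 on the NM18 arrays.

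NMuMG is an epithelial line from mouse mammary gland. All NMuMG cultures received 200 µM 4-thiouridine (4sU), a uridine analogue that enters RNA as it is made, for 2 h, either alone (control) or together with 5 ng/ml TGF-b1. Total RNA and the 4sU-labelled fraction, enriched by mercury-based chromatography and called newly made RNA here, were each hybridised from 3 samples of each treatment, which gave 12 arrays in 4 groups. All NM18 cultures were transfected with 25 nM siRNA and taken 48 h later, in 3 groups of 3 arrays. The groups were scrambled control siRNA (ns-siRNA), the same siRNA plus 5 ng/ml TGF-b1 for the last 40 h (added 8 h after transfection), and siRNA against the forkhead factor FoxQ1 plus the same TGF-b1. No group had FoxQ1 siRNA without TGF-b1. The labels call the replicates biological. A free-text note on ns-siRNA array 1 mentions TGF-b1, while its title and treatment label do not, and those were followed.

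The SOCS proteins, among them CISH, are made in response to cytokines that signal through JAK kinases and STAT factors, and they feed back on those receptors. Their SOCS box recruits a ubiquitin ligase to the proteins they bind. SPSB1 carries the same box behind a SPRY domain and is known as an adaptor that marks target proteins, including the inducible nitric oxide synthase, for degradation; it has also been described as a negative regulator of TGF-b signalling through the type II receptor. PIM1 and PIM3 are serine/threonine kinases that are active once made, so their abundance sets their activity, and Pim1 is a classic STAT target in blood cells.

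Stretches before the start sites of 4 of the genes are shown because Spsb1, Cish and Pim1 were higher after TGF-b1 in both array sets and Socs3 is the best known STAT target among the genes whose 2 h groups overlapped. They are RefSeq sequence of build GRCm38.p6, 5′ to 3′ on the gene's strand, and run over 270 bases, 250 before the start site and 20 from it on. Capitals mark matches to TTCNNNGAA, the core of STAT binding sites, or to CAGAC, a SMAD binding motif, on either strand. No matches to the pair of motifs overlapped in these stretches.
Spsb1, chr4:149954987-149955256, minus strand: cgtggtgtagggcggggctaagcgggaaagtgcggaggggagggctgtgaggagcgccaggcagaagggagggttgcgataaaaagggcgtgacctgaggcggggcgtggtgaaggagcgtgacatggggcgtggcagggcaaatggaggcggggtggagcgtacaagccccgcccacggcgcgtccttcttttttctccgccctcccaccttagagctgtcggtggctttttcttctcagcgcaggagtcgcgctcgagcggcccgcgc
Cish, chr9:107296409-107296678, plus strand: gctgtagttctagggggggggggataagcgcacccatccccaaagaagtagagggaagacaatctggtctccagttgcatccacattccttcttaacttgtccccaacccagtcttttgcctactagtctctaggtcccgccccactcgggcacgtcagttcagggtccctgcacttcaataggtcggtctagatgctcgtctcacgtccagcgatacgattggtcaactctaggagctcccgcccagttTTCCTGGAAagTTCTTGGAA
Pim1, chr17:29490535-29490804, plus strand: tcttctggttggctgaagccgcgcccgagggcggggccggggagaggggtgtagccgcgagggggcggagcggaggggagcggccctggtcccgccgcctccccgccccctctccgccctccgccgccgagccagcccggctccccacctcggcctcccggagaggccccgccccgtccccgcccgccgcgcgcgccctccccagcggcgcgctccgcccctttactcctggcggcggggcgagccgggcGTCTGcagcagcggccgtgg
Socs3, chr11:117969347-117969616, minus strand: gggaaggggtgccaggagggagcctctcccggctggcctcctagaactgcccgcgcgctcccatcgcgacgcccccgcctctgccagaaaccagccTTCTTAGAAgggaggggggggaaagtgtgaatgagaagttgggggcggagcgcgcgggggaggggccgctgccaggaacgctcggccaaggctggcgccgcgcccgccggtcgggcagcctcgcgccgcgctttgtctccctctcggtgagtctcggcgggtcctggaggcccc
The Cish stretch held 2 STAT matches, TTCCTGGAA at the start site and TTCTTGGAA 12 bases into the transcript, and no SMAD match. The Socs3 stretch held 1 STAT match, TTCTTAGAA, whose first base lies 154 bases before the start site. The Pim1 stretch held 1 SMAD match, at the start site itself, and a second annotated Pim1 start at chr17:29492835-29493104 held 1 SMAD match 52 bases before it. The letters of neither motif occur in the Spsb1 stretch, nor in the windows of 300 bases (250 before and 50 from the start) of Pim3 and Socs1. Of 32851 promoter windows of 300 bases in the same RefSeq table, 8.3% held at least 1 STAT match, 0.457% held 2 or more and 49.6% held at least 1 SMAD match. These matches are letters in a window, and binding was not measured.

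Values are log2 expression per probe set as deposited. The scale was inferred from their range, and a level may be compared closely only within 1 probe set and 1 array set. A place above or below the median of all genes compares different probe sets and is a rough guide only. Array medians over genes lay between 7.73 and 7.80 in NM18, between 6.52 and 6.60 in newly made RNA and between 6.64 and 6.72 in total RNA. No pair of arrays held identical values. The number of arrays (n = 3 in every group) limits the precision. The TGF-b target Smad7 was higher with TGF-b1 by 1.25 ± 0.11 (SE, log2) in total RNA at 2 h and by 0.94 ± 0.19 at 40 h. Of 6 epithelial markers, 5 in NMuMG and 4 in NM18 cells lay above the median level of all genes, with Epcam among those below it in NM18. Of 6 leukocyte markers 1 (Laptm5) and 0 lay above it, and of 6 fibroblast markers 1 (Pdgfrb) and 0. In such bulk samples fewer cells that express a gene and less RNA per cell cannot be told apart.

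The first comparison asked which of the genes responded within 2 h of TGF-b1 in NMuMG cells. By the probe sets that stood for the genes, Spsb1, Cish and Pim1 were higher and Pim3 was lower, in total and in newly made RNA alike. Socs1, Socs2 and Socs3 showed overlapping groups by the same measure, also in both kinds of RNA. With the fit over all genes (limma, adjusted p under 0.05), 3 of the 7 genes passed as higher in total RNA, against 1.46% of all genes, and 1 as lower, against 1.02%. In newly made RNA the counts were again 3 and 1, against 3.35% and 2.79% of all genes. These responses helped choose the genes, and nothing is read from the counts.

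Among the adaptors, Spsb1 gave 7.67, 7.56 and 7.22 in the control arrays of total RNA and 10.53, 10.23 and 10.17 with TGF-b1. In newly made RNA it gave 8.89, 8.96 and 8.67 without and 11.22, 11.44 and 11.19 with TGF-b1. In its probe sets 1428472_at and 1421474_a_at the control groups of total and newly made RNA overlapped. By the probe set that stood for Spsb1 the 4 groups formed separate steps with no overlap between any of them. The order was control total, control newly made, TGF-b1 total and TGF-b1 newly made. The change with TGF-b1 was 2.83 ± 0.14 (SE, log2; 7.10-fold) in total RNA, the third largest rise of 18193 genes, and 2.45 ± 0.14 (5.45-fold) in newly made RNA, where it ranked 7.

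Cish, the SOCS family member best known as a STAT5 target, gave 8.42, 8.35 and 8.37 in control total RNA and 9.62, 9.48 and 9.47 with TGF-b1. In newly made RNA it gave 8.31, 8.41 and 8.36 without and 9.27, 9.59 and 9.38 with TGF-b1. Every TGF-b1 array stood above every control array, while total and newly made RNA overlapped within each treatment. The change was 1.15 ± 0.11 (SE, log2; 2.21-fold) in total and 1.06 ± 0.11 (2.08-fold) in newly made RNA.

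The probe sets that stood for the classical SOCS feedback inhibitors showed no such separation. Socs3, an inhibitor of receptors that use gp130, gave 9.80, 9.70 and 9.27 in control total RNA, 9.90, 9.72 and 9.39 with TGF-b1, 10.09, 10.05 and 9.48 in control newly made RNA and 10.12, 9.65 and 9.68 with TGF-b1. All 4 of its groups overlapped, and array 3 was the lowest of its group in 3 of them. Its changes were 0.08 ± 0.19 (SE, log2) in total and -0.06 ± 0.19 in newly made RNA. Socs2, an inhibitor of growth hormone signalling, ran from 8.55 to 9.18 over the 12 arrays, with changes of -0.16 ± 0.15 and -0.10 ± 0.15. Its probe set 1438470_at gave 5.38, 5.19 and 5.36 in control total RNA and 4.89, 4.79 and 4.83 with TGF-b1. These groups did not overlap (-0.47 ± 0.13), while those in newly made RNA did (-0.09 ± 0.13). The groups of the remaining Socs2 probe sets overlapped in both kinds of RNA. Socs1, an inhibitor of interferon signalling, ran from 5.42 to 5.81, below the array medians over genes, with changes of 0.05 ± 0.12 in both kinds of RNA. The 95% intervals of these 3 genes in total RNA reached from -0.33 to 0.49 for Socs3, from -0.47 to 0.15 for Socs2 and from -0.21 to 0.31 for Socs1, which does not show that the genes did not respond.

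The PIM kinase genes moved in opposite directions. Pim1 gave 7.72, 7.59 and 7.25 in control total RNA and 9.47, 9.33 and 9.54 with TGF-b1. In newly made RNA it gave 9.04, 8.70 and 8.63 without and 10.59, 10.41 and 10.35 with TGF-b1. The control groups of total and newly made RNA overlapped in its second probe set, 1423006_at. Like that of Spsb1, the probe set that stood for Pim1 gave 4 steps without overlap, in the same order. The change was 1.93 ± 0.14 (SE, log2; 3.80-fold; rank 10 from the highest) in total and 1.66 ± 0.14 (3.16-fold; rank 28) in newly made RNA. Pim3 gave 11.87, 11.74 and 11.88 in control total RNA and 10.69, 10.54 and 10.62 with TGF-b1. In newly made RNA it gave 11.98, 12.27 and 11.76 without and 10.61, 11.05 and 10.54 with TGF-b1. Every TGF-b1 array of Pim3 lay below every control array, and the kinds of RNA overlapped within each treatment. Its change was -1.21 ± 0.15 (2.32-fold lower; rank 21 from the lowest) in total and -1.27 ± 0.15 (2.41-fold lower; rank 45 from the lowest) in newly made RNA.

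**Figure D1:**
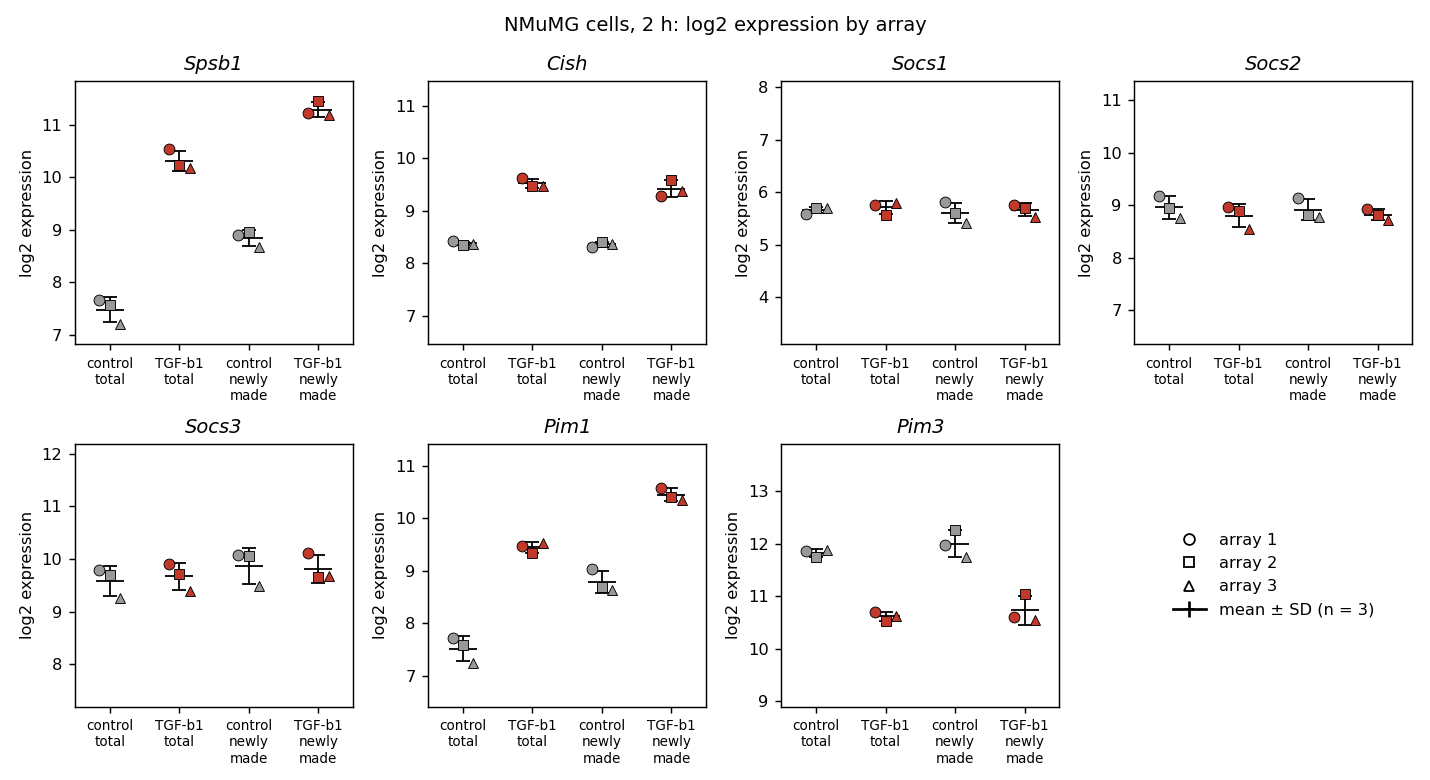
Log2 expression of each gene in the 12 NMuMG arrays (y axes of equal span, one probe set per gene), by treatment and kind of RNA; points are arrays, bars the mean ± SD (n = 3). Spsb1 and Pim1 climb in 4 steps from control total RNA (means 7.48 and 7.52) to TGF-b1 newly made RNA (means 11.28 and 10.45), Cish is higher and Pim3 lower with TGF-b1 in both kinds of RNA, and the groups of Socs1, Socs2 and Socs3 overlap.

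Whether the response at 2 h differed between newly made and total RNA was read from the interaction of the same fit. For none of the 7 genes did limma find a difference, against 0.066% of all genes that passed, and 0 of the 7 had an unadjusted p under 0.05, against 2.92% of all genes. For the probe set that stood for Spsb1 the difference of the responses, newly made minus total, was -0.38 ± 0.20 (SE, log2), with a 95% interval from -0.81 to 0.05. The other Spsb1 probe sets gave 0.62 ± 0.23 (1428472_at), 0.16 ± 0.30 (1449752_at) and -0.06 ± 0.18 (1421474_a_at), and the mean of all 4 gave 0.09, of the opposite sign. For Pim1 the difference was -0.27 ± 0.20, for Cish -0.09 ± 0.16 and for Pim3 -0.05 ± 0.21, and the intervals leave room for differences of either sign for each of these.

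A separate comparison, in cells without TGF-b1, set the labelled fraction against total RNA and so ordered RNAs by their weight in the labelled fraction relative to the array as a whole. It shares its control arrays with the 2 h responses that helped choose the genes. The control arrays of total RNA are subtracted both here and in the 2 h change of total RNA. The p-values of this comparison are therefore not independent of that choice. Of the probe sets that stood for the genes, those of Spsb1 and Pim1 passed: Spsb1 was higher in newly made RNA by 1.35 ± 0.14 (SE, log2; 2.56-fold; limma adjusted p = 8.317e-07), and Pim1 by 1.27 ± 0.14 (2.41-fold; limma adjusted p = 1.519e-06). All 3 newly made control arrays of both lay above all 3 total control arrays. The other probe sets differed in size: for Spsb1, 1449752_at gave 1.35 ± 0.21 (limma adjusted p = 5.627e-05), while 1428472_at gave 0.34 ± 0.16 (limma adjusted p = 0.1059) and 1421474_a_at -0.06 ± 0.13 (limma adjusted p = 0.7597). The second Pim1 probe set, 1423006_at, gave 0.27 ± 0.18 (limma adjusted p = 0.2312). Averaged over its probe sets Spsb1 gave 0.75 (limma adjusted p = 8.41e-05) and Pim1 0.77 (limma adjusted p = 0.000328), both still past the threshold. Of the 7 genes 2 passed as higher and 0 as lower, against 17.2% and 26.8% of all genes. The median of all genes was -0.08, and centring every array on its median moved it to 0.03 and the values of Spsb1 and Pim1 to 1.46 and 1.38.

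The probe sets that stood for the other genes did not pass. Cish differed by -0.02 ± 0.11 (SE, log2; limma adjusted p = 0.9239; 95% interval -0.25 to 0.22), Socs1 by -0.05 ± 0.12 (limma adjusted p = 0.793), Socs3 by 0.28 ± 0.19 (limma adjusted p = 0.2666) and Pim3 by 0.17 ± 0.15 (limma adjusted p = 0.4066; 0.44, adjusted p = 0.02183, after quantile normalization). For Socs2 the answer depended on the probe set. The one that stood for the gene, 1418507_s_at, gave -0.04 ± 0.15 (limma adjusted p = 0.8513), while among the other 5 probe sets 1442586_at gave 1.00 ± 0.15, 1446085_at 0.89 ± 0.28, 1438470_at 0.41 ± 0.13, 1441476_at 0.18 ± 0.17 and 1449109_at 0.00 ± 0.19. The first 3 of these passed over all probe sets (limma adjusted p = 2.519e-05, 0.01636 and 0.01951). Averaged over all 6 Socs2 probe sets, the difference turned to 0.41 (limma adjusted p = 0.01319).

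With TGF-b1 the same difference was 0.97 ± 0.14 (SE, log2) for Spsb1 and 1.00 ± 0.14 for Pim1, and it lay between -0.11 and 0.15 for the probe sets that stood for the other 5 genes. Here too the probe sets of a gene differed. For Socs2, 1438470_at gave 0.79 ± 0.13 (limma adjusted p = 0.0001095) and 1442586_at 0.70 ± 0.15 (limma adjusted p = 0.0007128), and the mean of all 6 gave 0.41 (limma adjusted p = 0.01172). For Spsb1 the other 3 gave 1.51 ± 0.21, 0.96 ± 0.16 and -0.12 ± 0.13, and the second Pim1 probe set gave 0.29 ± 0.18 (limma adjusted p = 0.1946).

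**Figure D2:**
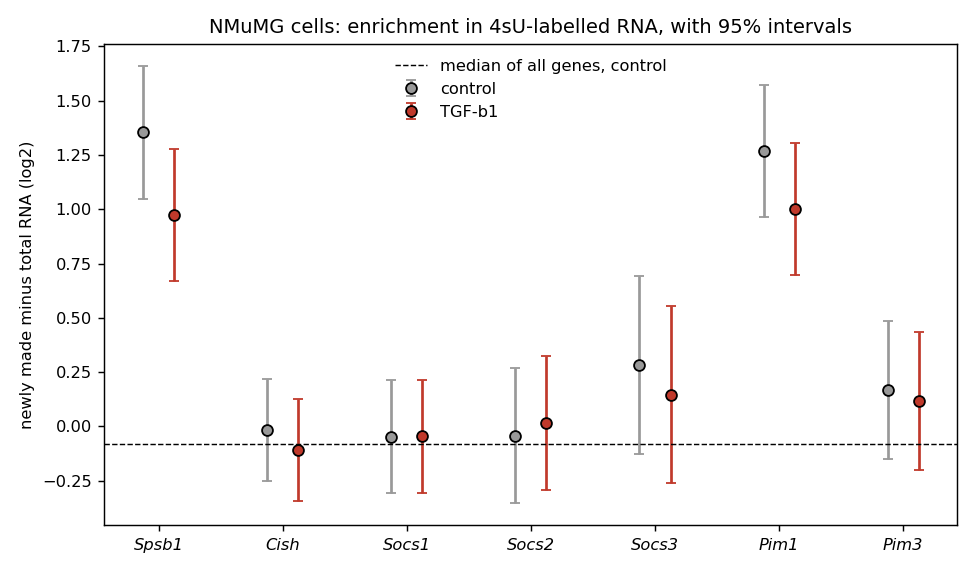
Difference between newly made and total RNA (log2, y axis) for the probe set that stands for each gene in control and TGF-b1 treated NMuMG cells, with 95% intervals; the dashed line is the median of all genes in control cells, -0.08. Spsb1 (1.35 in control cells, 0.97 with TGF-b1) and Pim1 (1.27 and 1.00) lie above 0, and the intervals of the other 5 genes include 0; one probe set per gene is drawn, and other probe sets of Spsb1, Pim1 and Socs2 gave other sizes.

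The NM18 arrays asked what the genes did after 40 h of TGF-b1, in separate samples from another table. Spsb1, Pim1 and Cish were again higher and Pim3 lower. Socs2 was lower too, where the probe set that stood for it in NMuMG cells had overlapping groups at 2 h. Of the 7 genes 3 rose, against 13.2% of all genes, and 2 fell, against 17.5% (limma adjusted p under 0.05), so that a call was common in this comparison. With the replicate number as a block Socs3 also passed, as lower, and 38.6% of all genes passed in either direction, against 30.7% without the block. Because the genes were proposed with these results known, the p-values are no independent support for the choice. A change at 2 h in one cell line and at 40 h in another was not tested as a difference, since time, line and amplification method changed together.

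Spsb1 gave 6.94, 7.55 and 6.98 with ns-siRNA and 9.70, 9.70 and 9.99 with TGF-b1. The groups did not overlap, and the lowest TGF-b1 array lay above the highest untreated array by more than the spread of either group. The rise was 2.64 ± 0.15 (SE, log2; 6.23-fold; limma adjusted p = 1.725e-06), the rank 11 rise of 12393 genes. Cish gave 8.37, 8.12 and 8.45 without and 9.08, 8.51 and 9.12 with TGF-b1. Its groups came close, since TGF-b1 array 2 (8.51) was only just above the highest untreated array (8.45). The rise was 0.59 ± 0.20 (limma adjusted p = 0.04655). This call was lost without any 1 of 5 of the 6 arrays. The adjusted p was 0.08707, 0.136 and 0.06554 without ns-siRNA array 1, 2 or 3, and 0.1602 and 0.1595 without TGF-b1 array 1 or 3. It was 0.05224 when the probe sets of every gene were averaged. Arrays of 1 number deviated together in NM18 cells, and with the replicate number as a block (a paired analysis) the adjusted p of Cish was 0.0003623; its differences between arrays of the same number were 0.71, 0.38 and 0.66.

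Among the SOCS inhibitors, Socs2 gave 10.68, 10.35 and 11.01 with ns-siRNA and 9.97, 9.58 and 10.06 with TGF-b1, with no overlap. It fell by 0.81 on the log2 scale (SE 0.16; 1.76-fold; limma adjusted p = 0.002257), and its second probe set, 1418507_s_at, changed by -0.90 ± 0.19 (limma adjusted p = 0.003779 over probe sets). Socs3 gave 10.79, 10.15 and 10.85 without and 10.16, 9.58 and 10.37 with TGF-b1. Array 2 was the lowest of both groups, and the groups overlapped. The change was -0.56 ± 0.23 (SE, log2; limma adjusted p = 0.09134), which did not pass. The differences between arrays of the same number were -0.64, -0.57 and -0.48, and with the replicate block the SE was 0.09 and the change passed (limma adjusted p = 0.0008106). Socs3 also passed without ns-siRNA array 2 (-0.79; limma adjusted p = 0.01802). Socs1 gave 6.41, 6.31 and 6.26 without and 6.46, 6.33 and 6.29 with TGF-b1, a difference of 0.04 ± 0.08 (limma adjusted p = 0.7915; 95% interval -0.13 to 0.20). These values too lay below the array medians over genes.

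Pim1 gave 7.83, 7.79 and 7.92 with ns-siRNA and 9.24, 8.79 and 9.64 with TGF-b1. All TGF-b1 arrays were above all untreated arrays, and they were spread more widely (SD 0.43 against 0.07, n = 3). The rise was 1.38 ± 0.24 (SE, log2; 2.60-fold; limma adjusted p = 0.001266). Pim3 gave 11.13, 10.78 and 11.44 without and 9.92, 9.65 and 9.86 with TGF-b1, again without overlap. It fell by 1.30 on the log2 scale (SE 0.14; 2.46-fold; limma adjusted p = 4.139e-05), beside changes of -1.21 and -1.27 at 2 h in the total and newly made RNA of NMuMG cells.

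**Figure D3:**
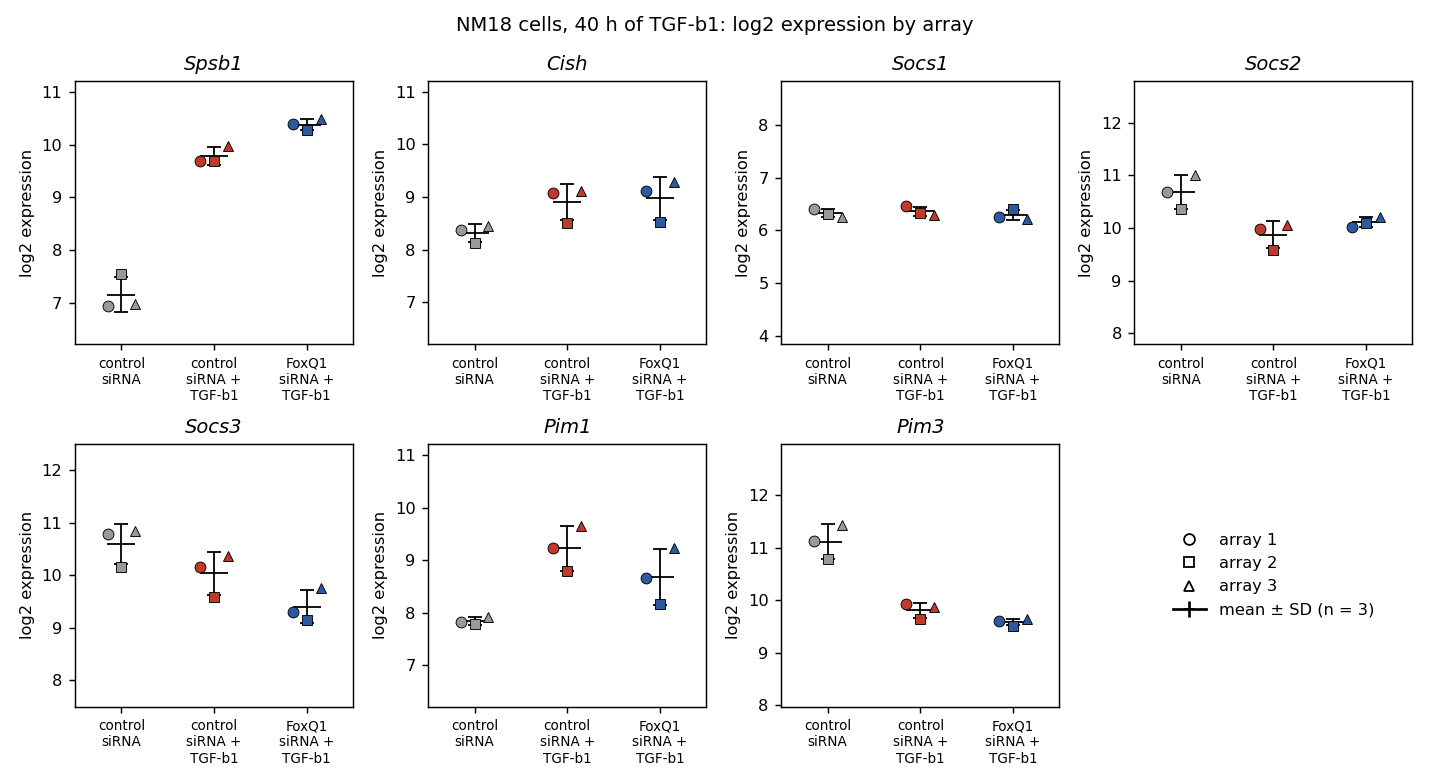
Log2 expression of each gene in the 9 NM18 arrays (y axes of equal span), for untreated control siRNA (grey), control siRNA after 40 h of TGF-b1 (red) and FoxQ1 siRNA after 40 h of TGF-b1 (blue); points are arrays, bars the mean ± SD (n = 3). Spsb1 rises from a mean of 7.15 over 9.79 to 10.38, Socs3 steps down from 10.60 over 10.04 to 9.40, and array 2 (square) is the lowest of its group for Cish and Pim1 in every group.

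The other probe sets of Spsb1, Pim1 and Pim3 gave the same direction with TGF-b1 as those that stood for the genes, at differing sizes. For Spsb1, 1428472_at, 1449752_at and 1421474_a_at changed by 1.18, 1.96 and 0.39 (log2) in total RNA at 2 h, against 2.83 for 1420150_at, and by 1.54 ± 0.08, 0.91 ± 0.10 and 0.42 ± 0.07 at 40 h. All 3 passed at 40 h over all probe sets (limma adjusted p = 1.694e-06, 7.523e-05 and 0.0008035). With the mean of all 4 Spsb1 probe sets the changes were 1.59 in total RNA at 2 h and 1.38 at 40 h. The second Pim1 probe set, 1423006_at, changed by 0.48 in total RNA at 2 h and by 1.15 ± 0.18 at 40 h (limma adjusted p = 0.0005894). For Pim3, whose representative 1437100_x_at is of the kind that can also bind related transcripts, 1451069_at gave -1.36 at 2 h in total RNA and -1.41 ± 0.15 at 40 h (limma adjusted p = 4.845e-05). The third, 1438956_x_at, gave -0.31 and -0.24 ± 0.10 (limma adjusted p = 0.1088). Socs3 was read by 3 probe sets, and the other 2 gave -0.49 ± 0.18 and -0.51 ± 0.25 at 40 h, neither of which passed (limma adjusted p = 0.07094 and 0.1587).

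**Figure D4:**
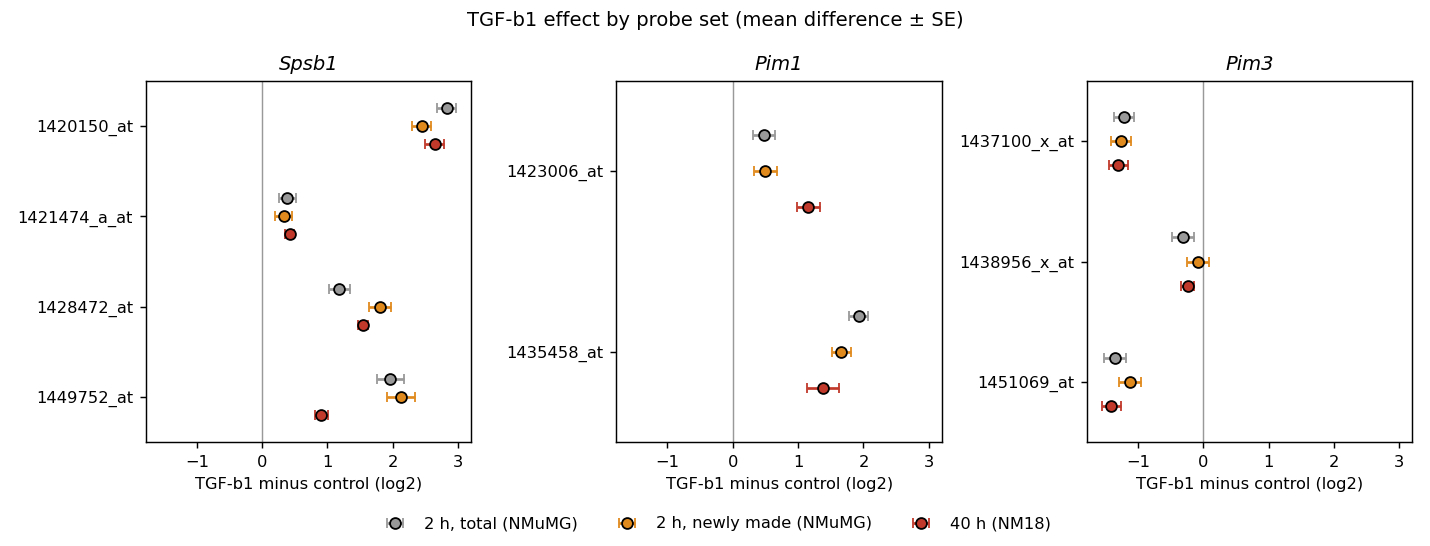
Difference between TGF-b1 and control (log2, x axis, ± SE) for every probe set of Spsb1, Pim1 and Pim3 (y axis) in the 3 comparisons named in the legend. The Spsb1 probe sets agree in direction and span 0.39 to 2.83 in total RNA at 2 h, and the Pim3 probe set 1438956_x_at lies near 0 (-0.31, -0.08 and -0.24).

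The last comparison asked what silencing FoxQ1 did under TGF-b1. Foxq1 itself gave 7.91, 8.49 and 8.38 with ns-siRNA, 9.08, 9.04 and 9.33 with ns-siRNA and TGF-b1, and 7.57, 8.09 and 7.97 with FoxQ1 siRNA and TGF-b1. Its level was lower in all 3 FoxQ1 siRNA arrays than in all 3 control siRNA arrays with TGF-b1, by 1.27 ± 0.16 (SE, log2; limma adjusted p = 0.0002914), written as a change of -1.27. Of the 7 genes 1 rose, against 11.3% of all genes, and 0 fell, against 8.28%; 2 had an unadjusted p under 0.05, against 30.2% of all genes. With the replicate number as a block, 1 of the 7 passed as higher, against 16.3% of all genes, and 2 as lower, against 12.1%. This comparison shares the control siRNA arrays with TGF-b1 with the 40 h comparison.

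Spsb1 was the gene that rose. Its FoxQ1 siRNA arrays gave 10.39, 10.27 and 10.49, all above the 9.70, 9.70 and 9.99 of control siRNA with TGF-b1. The difference was 0.59 ± 0.15 (SE, log2; 1.51-fold; limma adjusted p = 0.01506), and arrays of the same number differed by 0.69, 0.58 and 0.50. The call was lost without control siRNA TGF-b1 array 1 (0.54; limma adjusted p = 0.0661), without its array 2 (0.54; limma adjusted p = 0.05326) and without FoxQ1 siRNA array 3 (0.54; limma adjusted p = 0.05564). Of the other Spsb1 probe sets 1428472_at passed (0.43 ± 0.08; limma adjusted p = 0.003553), and 1449752_at (0.19 ± 0.10; limma adjusted p = 0.2477) and 1421474_a_at (0.17 ± 0.07; limma adjusted p = 0.129) did not. The mean of all 4 gave 0.34 (limma adjusted p = 0.00603).

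Socs3 and Pim1 were lower in each pair of same-numbered arrays but did not pass without the block. Socs3 gave 9.30, 9.16 and 9.75 with FoxQ1 siRNA, against 10.16, 9.58 and 10.37 with control siRNA, and only array 3 reached into the control range. Its difference was -0.63 ± 0.23 (SE, log2; limma adjusted p = 0.08221) and passed with the replicate block (limma adjusted p = 0.0007052), with same-number differences of -0.86, -0.42 and -0.61. It also passed without control siRNA TGF-b1 array 2 (-0.86; limma adjusted p = 0.02161) and without FoxQ1 siRNA array 3 (-0.81; limma adjusted p = 0.04578). Pim1 gave 8.66, 8.17 and 9.23, against 9.24, 8.79 and 9.64, so that the groups overlapped. Its difference was -0.54 ± 0.24 (limma adjusted p = 0.1662), with same-number differences of -0.58, -0.62 and -0.41, and it passed with the replicate block (SE 0.14; limma adjusted p = 0.01732) and without FoxQ1 siRNA array 3 (-0.81; limma adjusted p = 0.02692).

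For the remaining genes no difference passed. Pim3 gave 9.60, 9.52 and 9.64 with FoxQ1 siRNA, all just below the 9.92, 9.65 and 9.86 of control siRNA, a difference of -0.22 ± 0.14 (SE, log2; limma adjusted p = 0.3257). Socs2 gave 10.02, 10.10 and 10.21 against 9.97, 9.58 and 10.06 and overlapped (0.24 ± 0.16; limma adjusted p = 0.37; 95% interval -0.11 to 0.58). Cish gave 9.12, 8.52 and 9.29 against 9.08, 8.51 and 9.12, and array 2 was the lowest of both groups (0.07 ± 0.20; limma adjusted p = 0.8702; 95% interval -0.37 to 0.51). Socs1 gave 6.26, 6.40 and 6.22 against 6.46, 6.33 and 6.29 (-0.07 ± 0.08; limma adjusted p = 0.6293; 95% interval -0.23 to 0.10).

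Against untreated control siRNA cells, with which the 40 h comparison shares its controls, FoxQ1 siRNA with TGF-b1 gave 3.23 (log2) for Spsb1, where control siRNA with TGF-b1 gave 2.64. The pair of values was 0.84 and 1.38 for Pim1, -1.53 and -1.30 for Pim3, and -1.19 and -0.56 for Socs3. It was -0.58 and -0.81 for Socs2, 0.66 and 0.59 for Cish, and -0.03 and 0.04 for Socs1.

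**Figure D5:**
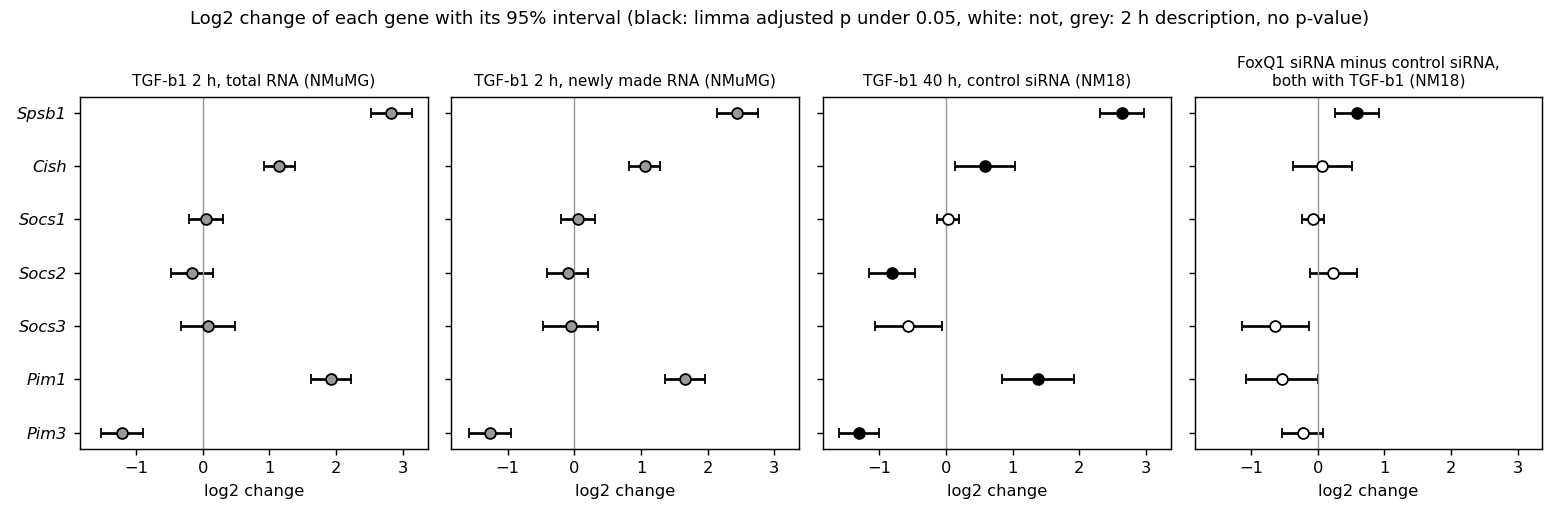
Log2 change of each gene (x axis) with its 95% interval in 4 comparisons; black points have a limma adjusted p under 0.05, white points do not, and grey points are the 2 h changes that helped choose the genes and are given without a p-value. Spsb1 is at 2.83, 2.45 and 2.64 with TGF-b1 and at 0.59 with FoxQ1 siRNA, and Pim3 lies between -1.30 and -1.21 with TGF-b1.

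The genes' patterns over the arrays of a set were described by Pearson's r, which in these designs mostly follows the group means that the arrays share. Over the 12 NMuMG arrays Spsb1 was most like Pim1 (r = 0.98), Cxxc5 (r = 0.98) and Gba2 (r = 0.98). Pim1 was most like Vegfa (r = 0.98), Spsb1 and Wnt9a (r = 0.98). Socs3, whose groups overlapped, was most like Cldn34c1 (r = 0.95), Atxn2 (r = 0.93) and Slc44a2 (r = 0.93). Over the 9 NM18 arrays the closest genes to Spsb1 were Wdfy1, Atp6v1e1 and Dusp2 (r = 0.997 each), those to Pim1 were Dgkz (r = 0.99), Lrrc8c (r = 0.98) and Spcs3 (r = 0.98), and those to Socs3 were Nop16 (r = 0.99), Apex1 (r = 0.99) and Abce1 (r = 0.98). Spsb1 and Pim1 were thus each other's near neighbours in NMuMG cells (r = 0.98). Over all 9 NM18 arrays, those of FoxQ1 siRNA among them, r between them was 0.75. The cause of this difference was not tested. Spsb1 and Pim3 had r = -0.81 in NMuMG and r = -0.98 in NM18 cells.

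The relatives of the 7 genes outside the choice (SPSB2 to SPSB4, SOCS4 to SOCS7, PIM2, WSB1 and WSB2) were followed as a list. This count and those of the lists that follow stand beside the shares of all genes that passed. The lists were chosen with earlier results of these data known, so their counts are a description. In the 2 h comparisons these were 1.46% higher and 1.02% lower in total RNA and 3.35% and 2.79% in newly made RNA. At 40 h they were 13.2% and 17.5%, with FoxQ1 siRNA 11.3% and 8.28%. At 2 h 0 of 10 passed in either direction (limma) in total and in newly made RNA, with medians of -0.02 in both, against -0.03 and -0.01 for all genes. Spsb4 had the largest difference in total RNA, -0.77 ± 0.20 (limma adjusted p = 0.05312). At 40 h 1 of 10 rose (Wsb1, 0.59 ± 0.12; limma adjusted p = 0.002406) and 3 fell (Socs5 -0.36 ± 0.06, Spsb4 -0.46 ± 0.12 and Socs6 -0.31 ± 0.08). With FoxQ1 siRNA 2 rose (Socs5, 0.37 ± 0.06, and Pim2, 0.40 ± 0.07) and 1 fell (Wsb1, -0.65 ± 0.12; limma adjusted p = 0.002501). In newly made against total RNA of untreated NMuMG cells 4 were higher, Wsb1 by 2.00 ± 0.16, Socs4 by 1.90 ± 0.16, Socs5 by 1.68 ± 0.30 and Socs7 by 1.41 ± 0.12, and 1 was lower (Wsb2, -0.41 ± 0.12), against 17.2% and 26.8% of all genes, with a median of 0.03 against -0.08 for all genes. The ubiquitin ligase core that the SOCS box recruits (the elongins B and C, Cul5, Cul2, Rnf7 and Rbx1) had 0 of 6 passing at 2 h in either kind of RNA and 0 of 4 measured in NM18 cells in either comparison.

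Upstream, some cytokines of the gp130 family rose with TGF-b1. Il11 rose by 2.41 ± 0.27 (SE, log2; limma adjusted p = 4.801e-05) in total and 2.53 ± 0.27 in newly made RNA at 2 h, and Il6 by 1.85 ± 0.26 in newly made RNA, so that 1 and 2 of 6 measured ligands rose and 0 fell. At 40 h 4 of 5 rose, against 13.2% of all genes: Il11 by 3.96 ± 0.50 (limma adjusted p = 0.0001358), Lif by 1.58 ± 0.33, Clcf1 by 0.68 ± 0.18 and Il6 by 0.67 ± 0.11. The list's median was 0.68, against 0.00 for all genes. Because the list was chosen with earlier results known, nothing is read from how many of its genes passed. With FoxQ1 siRNA 0 of 5 passed (limma). Of 15 measured receptors that use JAK kinases, 0 passed in total RNA at 2 h and 2 fell in newly made RNA (Lifr -0.71 ± 0.18 and Ifngr1 -0.55 ± 0.15). At 40 h 4 of the 15 rose and 2 fell, against 13.2% and 17.5% of all genes, led by Osmr (0.44 ± 0.07) and Ifngr2 (-0.43 ± 0.07). With FoxQ1 siRNA 4 rose and 1 fell, against 11.3% and 8.28%.

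Of 10 measured JAK kinases and STAT factors, Jak2 alone rose at 2 h, by 0.61 ± 0.13 (SE, log2; limma adjusted p = 0.0118) in total and 0.92 ± 0.13 (limma adjusted p = 0.0002112) in newly made RNA. At 40 h 2 rose, Stat3 by 0.82 ± 0.12 (limma adjusted p = 0.0003267) and Jak1 by 0.49 ± 0.10, and with FoxQ1 siRNA 3 rose (Tyk2, Stat5b and Jak2), against 13.2% and 11.3% of all genes that rose. Of 10 other negative regulators of the pathway (phosphatases, PIAS proteins and the like), 0 passed at 2 h in either kind of RNA, 2 rose and 3 fell at 40 h, against 13.2% and 17.5% of all genes, and 1 rose (Pias3, 0.49 ± 0.11) and 1 fell (Ptpn1, -0.50 ± 0.07) with FoxQ1 siRNA.

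Of 16 other genes known as STAT3 or STAT5 targets, 2 rose in total RNA at 2 h, Vegfa by 1.07 ± 0.14 and the repressor gene Bcl6 by 1.16 ± 0.17 (SE, log2), and 1 fell, Cebpd (-0.90 ± 0.20). The median of the 16 was -0.10, against -0.03 for all genes. In newly made RNA 2 rose and 2 fell, the same 3 genes with Bcl2l1 (-0.46 ± 0.11). At 40 h 4 rose, among them Timp1 (1.07 ± 0.13) and Bcl6 (0.96 ± 0.12), and 7 fell, among them Birc5 (-1.39 ± 0.09) and Lcn2 (-1.66 ± 0.22), against 13.2% and 17.5% of all genes. With FoxQ1 siRNA 2 rose, Vegfa and Bcl6, and 1 fell, Birc5 (-2.18 ± 0.09; limma adjusted p = 1.717e-07), a gene of cell division.

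Among 15 proteins known to be bound by SPSB1 or to be PIM substrates, 0 passed in total RNA at 2 h. In newly made RNA 1 rose (Foxo1, 0.73 ± 0.14) and 2 fell (Met, -0.41 ± 0.11, and Nolc1, -0.48 ± 0.14). The type II receptor gene Tgfbr2 had the largest difference there, -0.93 ± 0.27, and did not pass (limma adjusted p = 0.05772). In total RNA it gave -0.41 ± 0.27 (limma adjusted p = 0.7698). Of 14 measured in NM18 cells 0 rose and 4 fell at 40 h, against 13.2% and 17.5% of all genes, among them the kinase gene Map3k5 (-1.20 ± 0.11; limma adjusted p = 2.087e-05) and Met (-0.46 ± 0.07). With FoxQ1 siRNA 1 rose, Map3k5 (0.92 ± 0.11; limma adjusted p = 0.0002239), and 3 fell, against 11.3% and 8.28% of all genes. These counts are of RNA and say nothing of the proteins' abundance.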

How the data were processed

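Expression in 12 NMuMG and 9 NM18 arrays was analysed from the authors' deposited tables of log2 values per probe set. The log2 scale was inferred from the values (2.34 to 14.8 and 4.57 to 14.6); background correction, summarisation and normalization are not given in the sources used here. The submitters' processing notes name affy 1.18.2 without a role. Per the labels' protocols, NMuMG RNA was amplified in a two-cycle protocol and NM18 RNA by 3′ in vitro transcription, so the tables were tested separately. Gene symbols came from the platform annotation (34945 of 45101 and 20380 of 22690 with 1 symbol), and each gene was represented by its probe set of highest mean.

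Groups, taken from titles and treatment labels, were compared with limma 3.58.1 in R 4.3.3 (lmFit, eBayes), with all groups of a table in the same fit, two-sided p-values and Benjamini-Hochberg adjustment over all genes, called at an adjusted p under 0.05. The fit was tested on simulated data. The 7 genes and the gene lists were chosen with earlier results of these data known. Named genes were the 7, Foxq1 and early TGF-b targets as checks, and the 3 genes most like Spsb1, Pim1 and Socs3. From each list and comparison up to 4 called members with the smallest p were named. Outside this rule, Lcn2 was named at 40 h, and all called relatives in newly made against total RNA of untreated cells. Spsb4 and Tgfbr2 at 2 h were named after their values were seen.

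Same-numbered arrays deviated together from their group means in NM18 (correlations 0.1603 to 0.608) and within a kind of NMuMG RNA (0.1217 to 0.7321). Between kinds the correlations over all pairs of treatments were of mixed sign and overlapped that range (-0.1817 to 0.315). Within 1 treatment all were positive, 0.02172 to 0.3055 in control and 0.0119 to 0.2072 with TGF-b1. Arrays of different numbers there reached 0.1076 and 0.1604, above the lowest of these. In newly made RNA arrays of different numbers reached 0.3469, above the lowest same-number value there (0.3385). The numbers were read as pairing the NM18 arrays and, less clearly, the NMuMG arrays of 1 kind. Whether they pair the kinds of RNA stayed unsettled. The labels do not say if the same culture gave both kinds of RNA of a number. Alternatives were the replicate block, only the groups compared, median centring, quantile normalization, a filter on low genes, the mean of all probe sets, an intensity trend and leaving out each array. The replicate block within each kind of RNA was chosen after seeing the data. Promoter sequence came from RefSeq (GRCm38.p6), which held 6 of the 7 genes.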

Additional observations from a re-analysis of the deposited data

How the results depend on the processing

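With 7 genes in 8 comparisons, 776 values under alternatives were compared with their main values: 752 kept their call, 9 passed that had not, 14 no longer passed and 1 turned. Of the 752, 51 changed sign without passing either way. The value that turned was Socs2 in newly made against total RNA of control cells, from -0.04 to 0.41 (limma adjusted p = 0.01319) when its probe sets were averaged. The number of genes passing under FoxQ1 siRNA was 1, rose to 3 with the replicate block (with which 28.4% of all genes passed, against 19.6% without it) and ran from 0 to 2 when single arrays were left out. The block turned the calls of Socs3 at 40 h and of Socs3 and Pim1 under FoxQ1 siRNA and changed no other call. Against untreated cells the call of Cish was lost without FoxQ1 siRNA array 1 or 3 or ns-siRNA array 2 (limma adjusted p up to 0.09685), that of Socs2 without ns-siRNA array 3 (0.05028) and that of Pim1 without FoxQ1 siRNA array 3 (0.06495). The mean of all probe sets lowered Pim1 in total RNA at 2 h from 1.93 to 1.20. The filter on low genes left Socs1 untested. The cause of these changes was not tested. With 3 arrays a group, changes under the intervals given could not be detected.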
